A study of Mus musculus with 6 samples.

Results

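The 10 genes described here were measured in cortical bone tubes treated with parathyroid hormone (PTH). They were the growth factor *Csf1*, its receptor *Csf1r*, and 8 further genes that are used to mark macrophages, namely *Emr1* (now *Adgre1*), *Cd68*, *Cd14*, *Mrc1*, *Mpeg1*, *Cd163*, *Siglec1* and *Msr1*. The choice was by name, and every row of the array table that carries one of these symbols was taken. Of the 10 genes 9 had a row, with 14 of the 45281 probes on the array, and *Siglec1* was listed only under its older name *Sn*. The tubes were shafts of femur and tibia from C57BL6 mice aged 3 months, cleared of marrow and surface cells by flushing and by repeated digestion with collagenase and trypsin, and kept overnight in medium with serum. They were then left untreated (Ctr, 3 arrays) or given Pth 1-34 at 250 nM (Pth, 3 arrays) for 24 hours. The methods give the age as 2–3 months. Bones were pooled, from 4–5 mice per experiment. The labels call the tissue osteocytes in cortical bone, but whole tubes were extracted, so any other cell left in the bone also gave RNA. The labels do not say whether the 3 arrays of a group came from separate batches of mice, and p-values measure only the spread between these arrays.

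CSF1, also called M-CSF, is a secreted and membrane-bound growth factor of the macrophage lineage, and cells of the osteoblast lineage, osteocytes among them, are a source of it in bone. It binds the receptor tyrosine kinase CSF1R on monocytes, macrophages and osteoclast precursors, and together with RANKL it is required to form osteoclasts. Mice without functional CSF1 have few osteoclasts and lack many tissue macrophages. The other genes encode proteins of the macrophage surface or its lysosomes, and several are shared with neighbouring cell types: *Cd68* is abundant in osteoclasts, *Cd14* in neutrophils and monocytes, and *Mrc1* in some endothelium.

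Between 34.2% and 38.4% of all probes were above background on an array, defined as a detection p under 0.05 against the negative controls. Values are normalized log2 signals, and differences are Pth minus Ctr on that scale. Testing required detection on 3 or more of the 6 arrays. Each gene is represented by its brightest tested probe, and a gene was called where the limma adjusted p was below 0.05 and the groups differed 1.5-fold or more. The osteocyte genes *Dmp1*, *Mepe* and *Phex* were above background on all 6 arrays, *Sost* on all Ctr arrays and 1 Pth array, and *Fgf23* on none. RNA of blood and marrow cells was present as well. Of 15 neutrophil and monocyte markers on the array 13 were tested. Of 10 lymphocyte markers *Nkg7* was above background on 6 arrays, *Cd79b* on 5 and *Cd3e* on 1, and the other 7, among them *Cd3d*, *Cd4* and *Cd79a*, on none.

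None of the macrophage genes and neither *Csf1* nor *Csf1r* was called. The 7 genes tested, all above background on every array, gave 0 calls by limma, against 1.73% of the 11979 genes tested. At an unadjusted p under 0.05 there were 2 of 7, *Mrc1* (lower) and *Cd14* (higher), against 14.9% of all genes. The groups did not overlap for 3 of 7, the same 2 and *Emr1*, against 21.9% of all genes. With 7 genes these counts are a description, and nothing is read from the shares. The mean was lower with PTH for 6 of the 7, where 49.2% of all tested genes were lower. The median difference was -0.10, and over all tested genes it was 0.01. Summed over the 7 genes, the linear normalized signal was 6531 to 7953 on the Ctr arrays and 6176 to 7817 on the Pth arrays, so the sums overlapped. The brightest genes, the ligand *Csf1* and *Cd68* (both 11.04 in Ctr), weigh most in these sums, and *Mrc1* (7.68) weighs little. In such bulk RNA, fewer macrophages and less of these transcripts in each macrophage cannot be told apart.

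**Figure D1:**
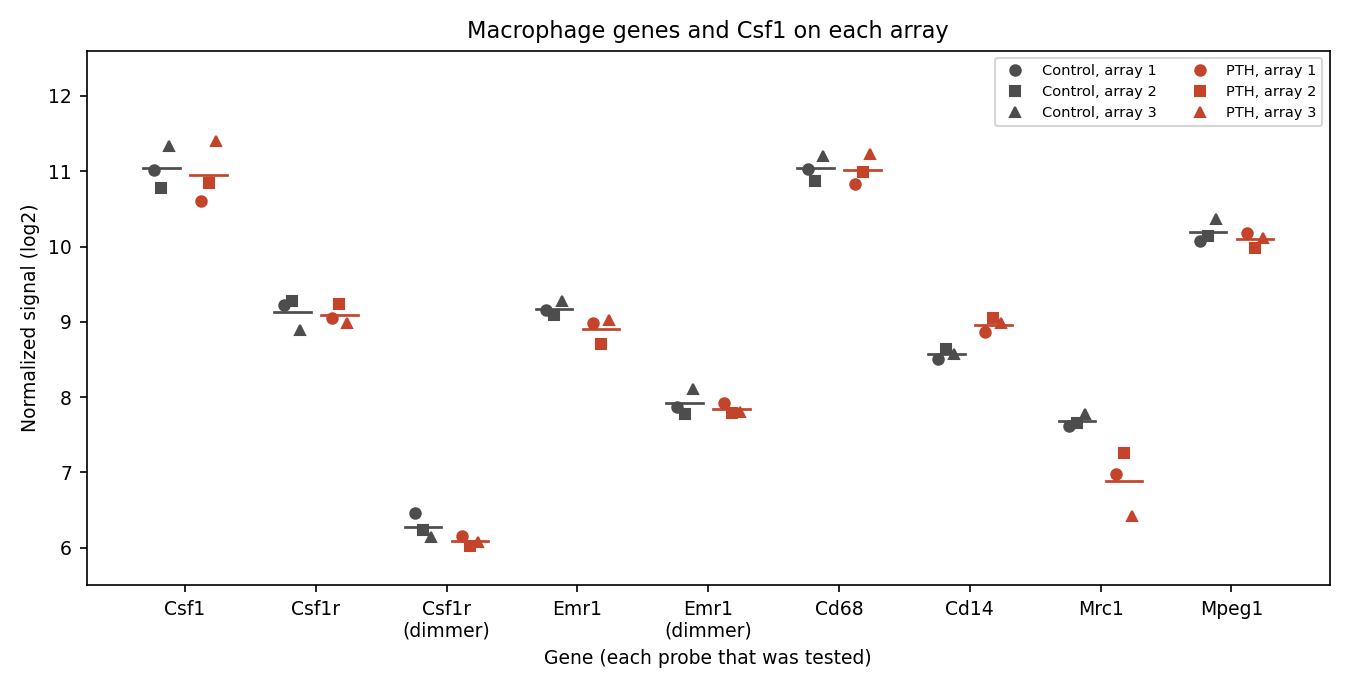
Normalized log2 signal (vertical axis) of the 9 tested probes of 7 genes (horizontal axis) on the 3 Ctr arrays (grey) and 3 Pth arrays (red), with the replicate number as the marker shape and the group mean as a line. Only *Cd14*, *Mrc1* and the brighter *Emr1* probe have groups that do not overlap, and *Csf1* and *Cd68* are highest on the arrays numbered 3 in both groups.

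*Csf1*, the ligand, was at 11.01, 10.78 and 11.34 on Ctr arrays 1, 2 and 3 and at 10.61, 10.84 and 11.40 on Pth arrays 1, 2 and 3. The array numbered 3 was the highest in each group, and the groups overlapped along their length. The mean went from 11.04 ± 0.28 (SD, n = 3) to 10.95 ± 0.40 (SD, n = 3), a difference of -0.10 (SE 0.23, limma adjusted p = 0.895). The 95% interval of this difference ran from -0.63 to 0.44, so a change of 1.5-fold downwards, but not upwards, lies inside it. Before normalization the signals of *Csf1* were 1759, 1849 and 2667 on the Ctr arrays and 1367, 1972 and 3775 on the Pth arrays, with the highest on Pth array 3. The 99th percentile of all probes was also highest on that array, 5726 against 3358 to 4350 on the others. The difference was 0.05 without Ctr replicate 3 and 0.08 without Pth replicate 1, and -0.32 without Pth replicate 3, none of them past the threshold.

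*Csf1r*, the receptor, was closer between groups. Its brighter probe was at 9.22, 9.27 and 8.89 on the Ctr arrays and at 9.05, 9.24 and 8.98 on the Pth arrays. The groups overlapped, with array 3 the lowest in each, and the difference was -0.04 (SE 0.15, limma adjusted p = 0.943), with a 95% interval from -0.39 to 0.31. A 1.5-fold change in either direction lies outside this interval. The dimmer probe gave 6.46, 6.23 and 6.14 on the Ctr arrays and 6.15, 6.03 and 6.08 on the Pth arrays, also overlapping, a difference of -0.19 (limma adjusted p = 0.574). Neither probe passed the test.

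Of the other colony-stimulating factors and related growth factor receptors, 10 were on the array under the symbols searched and 6 were tested. None was called by limma on its brightest probe, with 2 at an unadjusted p under 0.05, against 14.9% of all genes. The median difference was -0.12. *Csf2*, *Flt3*, *Flt3l* and *Kitl* were above background on no array, and *Il34*, the second ligand of CSF1R, was not analysed here. The lowest of the list was *Csf3r*, the receptor of granulocyte colony-stimulating factor on neutrophils, at -0.95 (SE 0.27, limma adjusted p = 0.154). A dimmer probe of *Csf3r* passed the thresholds, at -1.01 (SE 0.16, limma adjusted p = 0.0239). Its values were 5.92, 6.09 and 5.80 on the Ctr arrays and 5.01, 4.67 and 5.08 on the Pth arrays. Pth arrays 1 and 2 were at background: an *Emr1* probe at 5.04 and 4.81 there had detection p of 0.065 and 0.146. Nothing is therefore read from the p-value of the dimmer *Csf3r* probe. The next lowest gene was *Kit*, the receptor of stem cell factor, at -0.37 (limma adjusted p = 0.259). The highest were *Csf2rb2*, a beta receptor subunit, at 0.33 and the alpha subunit *Csf2ra* at 0.09 (limma adjusted p = 0.378 and 0.853). *Csf2rb1*, a separate beta subunit, was at -0.01 (limma adjusted p = 0.992).

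Among adaptors and enzymes that act with or downstream of CSF1R and related receptors, 19 were on the array and 12 were tested. Of these 1 was called, against 1.73% of all tested genes, and 16.7% had groups without overlap, against 21.9%. This was *Fcer1g*, the gamma chain shared by Fc receptors of macrophages, neutrophils and mast cells, which fell from 12.28, 12.17 and 12.09 to 11.03, 11.34 and 11.05. Its difference was -1.04 (SE 0.14, limma adjusted p = 0.0135) and was not called under median scaling or in 3 of 6 fits without 1 array (Ctr 1, Ctr 2 or Pth 1). *Tyrobp*, the DAP12 adaptor of macrophages and osteoclasts, was at 8.61, 8.45 and 9.06 on the Ctr arrays and at 8.97, 8.63 and 9.10 on the Pth arrays, with overlapping groups. The kinase *Src* was highest at 0.44 and the phosphatase *Inpp5d* next at 0.25, while the adaptor *Dok2* was at -0.29 (limma adjusted p = 0.181, 0.748 and 0.436). The median over the 12 was -0.06.

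The genes that mark macrophages broadly stayed within the spread of the arrays or close to it. *Cd68*, a glycoprotein of the lysosomes of macrophages and osteoclasts, was at 11.03, 10.88 and 11.20 on the Ctr arrays and at 10.83, 10.99 and 11.23 on the Pth arrays. The difference was -0.02 (SE 0.15, limma adjusted p = 0.968), with a 95% interval from -0.38 to 0.33, and the groups overlapped along their length. *Mpeg1*, which encodes the pore-forming protein perforin-2 of phagocytes, was at 10.07, 10.14 and 10.36 and at 10.18, 9.98 and 10.12, a difference of -0.10 (SE 0.13, limma adjusted p = 0.804) with an interval from -0.41 to 0.21. Its second probe was above background on 1 Ctr array only and was not tested.

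*Emr1* encodes the surface receptor by which mouse macrophages are usually stained. Its brightest probe was at 9.16, 9.09 and 9.27 on the Ctr arrays and at 8.99, 8.71 and 9.02 on the Pth arrays. All Pth arrays lay below all Ctr arrays by this probe, a difference of -0.27 (SE 0.14, limma adjusted p = 0.42) with a 95% interval from -0.59 to 0.05. The second probe did not repeat this, with 7.87, 7.77 and 8.10 on the Ctr arrays, 7.92, 7.79 and 7.80 on the Pth arrays and a difference of -0.08 (limma adjusted p = 0.85). The third was above background on 1 Ctr array and no Pth array.

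*Cd14*, the lipopolysaccharide co-receptor of monocytes, macrophages and neutrophils, was the one gene of the set with a higher mean with PTH. It was at 8.50, 8.64 and 8.57 on the Ctr arrays and at 8.86, 9.05 and 8.98 on the Pth arrays. All Pth arrays lay above all Ctr arrays, with a narrow spread in both groups. The deposited signals, 386, 493 and 469 against 464, 640 and 806, overlapped through Pth array 1. The normalized mean went from 8.57 ± 0.07 (SD, n = 3) to 8.96 ± 0.09 (SD, n = 3), a 1.31-fold difference of 0.39 (SE 0.12, 95% interval 0.12 to 0.67). It did not pass over all probes (limma adjusted p = 0.184) and was below the 1.5-fold minimum. Over all other settings and left-out arrays the difference stayed between 0.32 and 0.54, and its adjusted p was under 0.05 only with quantile normalization without background correction (limma adjusted p = 0.0464), where the fold was still too small for a call.

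The genes that act beside CD14 in lipopolysaccharide sensing were divided in direction. Of 12 tested, 7 had a higher and 5 a lower mean, none was called by limma, and the median was 0.04. An unadjusted limma p under 0.05 was found for 4, against 14.9% of all genes. *Ly96*, the MD-2 subunit that binds lipopolysaccharide, was highest at 0.44, followed by *Traf6*, an adaptor ligase, at 0.17 (limma adjusted p = 0.286 and 0.726). *Tlr4*, the signalling receptor, was at -0.32 (limma adjusted p = 0.407), a difference that did not pass. The lowest gene detected in both groups was *Ly86*, the partner of CD180, at -0.59 (limma adjusted p = 0.107). *Ticam2*, an adaptor of TLR4, was at -0.60, but above background on 3 Ctr arrays and on no Pth array. It passed the filter only through the Ctr arrays, so nothing is read from its p-value, although it is among the 4.

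*Mrc1*, the mannose receptor CD206 of resident and alternatively activated macrophages, had the widest difference of the set. It was at 7.62, 7.66 and 7.77 on the Ctr arrays and at 6.98, 7.26 and 6.42 on the Pth arrays. All Pth arrays lay below all Ctr arrays, and their spread was the larger, with Pth array 3 the lowest. The deposited signals, 255, 306 and 312 against 190, 245 and 218, did not overlap either, but there Pth array 1 was the lowest. The mean went from 7.68 ± 0.08 (SD, n = 3) to 6.89 ± 0.43 (SD, n = 3), a difference of -0.80 (SE 0.21, 95% interval -1.29 to -0.31). It did not pass over all probes (limma adjusted p = 0.132). With the same background correction but an offset of 50, *Mrc1* was called at -0.65 (limma adjusted p = 0.0341). With quantile normalization alone it had an adjusted p of 0.0119 (limma) at -0.48, a fold under 1.5 and so no call. Without Pth replicate 3 the difference was -0.57 and without Pth replicate 2 it was -0.98, and neither was called. An exact permutation test of 1 gene cannot go below p = 0.1 with 3 arrays against 3, and it gave this value (exact, two-sided) for *Mrc1*, *Cd14* and the brighter *Emr1* probe.

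**Figure D2:**
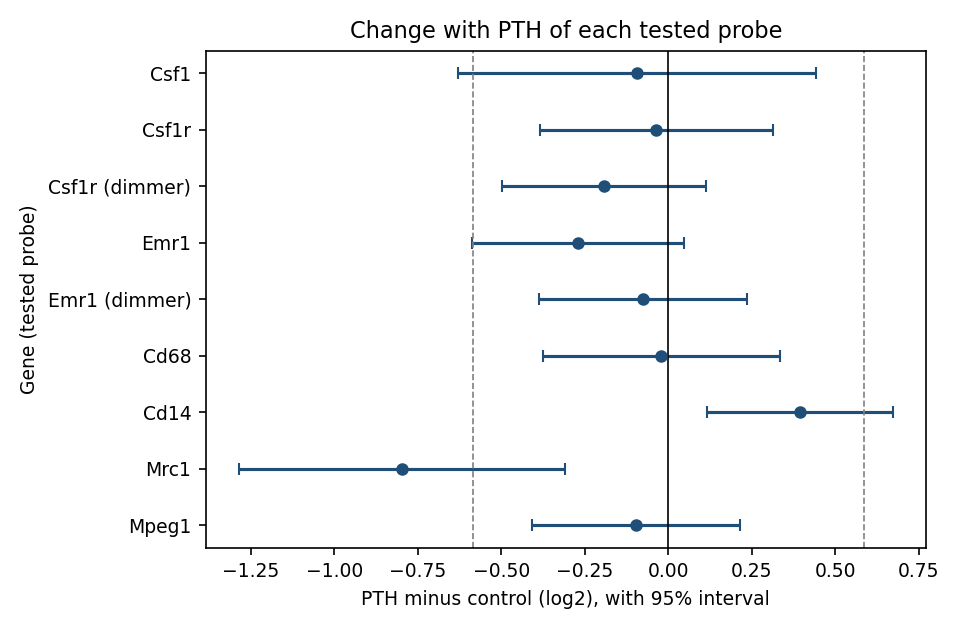
Difference between Pth and Ctr (horizontal axis, log2) with its 95% interval from limma for the 9 tested probes (vertical axis), with a solid line at no change and dashed lines at 1.5-fold. The intervals of *Cd14* (0.12 to 0.67) and *Mrc1* (-1.29 to -0.31) exclude 0 before adjustment. Those of both *Csf1r* probes, *Cd68*, *Mpeg1* and the dimmer *Emr1* probe lie within the 1.5-fold lines.

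The rest of the set, *Cd163*, *Msr1* and *Siglec1* under its older name, was not detected in either group. *Cd163*, which takes up haptoglobin with haemoglobin, had 2 probes with deposited signals of 95.1 to 129 on the Ctr arrays and 98.3 to 116 on the Pth arrays, close to the array medians of 111 to 129. *Msr1*, the class A scavenger receptor, lay between 96.3 and 126 on the Ctr arrays and between 102 and 117 on the Pth arrays. The row *Sn*, an older name of *Siglec1*, the sialic acid receptor of marrow and lymph node macrophages, lay between 110 and 137 and between 102 and 129. None of these probes was above background on any array, and no fold change is given for them. A probe not above background can be a poor probe as well as an absent transcript.

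Further macrophage markers gave a wider view than the set itself. Of 31 on the array 23 were tested, and 1 was called, against 1.73% of all tested genes. This was *Stab1*, the endocytic receptor stabilin-1 of resident macrophages and sinusoidal endothelium, which fell from 8.71, 8.56 and 8.65 on the Ctr arrays to 7.85, 7.75 and 7.86 on the Pth arrays, a difference of -0.82 (SE 0.12, limma adjusted p = 0.0193). The call of *Stab1* was lost under median scaling and when any 1 of the 6 arrays was left out, with differences from -0.86 to -0.78. The mean was lower for 19 of the 23 (82.6%, against 49.2% of all tested genes). The groups did not overlap for 10 (43.5%, against 21.9%), all 10 lower with PTH. The median difference was -0.19. The complement genes *C1qa* and *C1qb* were at -0.74 and -0.72 (limma adjusted p = 0.169 and 0.0576). At the other end *Spic*, a transcription factor of red pulp and marrow macrophages, was at 0.40 and *Mertk*, a receptor for apoptotic cells, at 0.37 (limma adjusted p = 0.325 and 0.637). *Vsig4*, *Cd5l* and *Ccr2* were above background on no array.

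Of the transcription factors of the lineage 6 were tested and none was called by limma, with a median of -0.04. An unadjusted limma p under 0.05 was found for 1, against 14.9% of all genes. That one was *Sfpi1*, now *Spi1*, which encodes PU.1, a regulator of *Csf1r* and of macrophage fate. It was at 6.17, 6.02 and 6.21 on the Ctr arrays and at 6.48, 6.72 and 6.75 on the Pth arrays, higher on every Pth array, a difference of 0.52 (SE 0.13, limma adjusted p = 0.122). *Cebpb* was at 0.12 and *Klf4* at -0.23.

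Genes of macrophage activation were not called in either direction. Of 7 tested genes of classical activation 5 had a lower mean, with a median of -0.19. An unadjusted limma p under 0.05 was found for 2, against 14.9% of all genes. *Il1b* was lowest at -0.63 (limma adjusted p = 0.132), while *Ptgs2* was at 0.22 and *Il6* at 0.10. *Nos2* was at -0.56, but above background on 3 Ctr arrays and no Pth array. It passed the filter only through the Ctr arrays, so nothing is read from its p-value, although it is among the 2. Of 6 tested genes of alternative activation, to which *Mrc1* is usually counted, 5 had a lower mean and the median was -0.36. Here 3 had an unadjusted p under 0.05 by limma, beside the same 14.9% of all genes. *Arg1* was at -0.57 and *Chi3l3* at -0.38, while the transglutaminase *Tgm2* was at 0.57 (limma adjusted p = 0.092, 0.202 and 0.0759). *Retnla*, *Ccl22* and *Il10* were above background on no array.

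Of 10 chemokines tested that attract monocytes or related cells 1 was called, against 1.73% of all tested genes. *Ccl9*, which attracts osteoclast precursors, rose from 11.09, 11.03 and 10.90 on the Ctr arrays to 11.80, 11.65 and 11.68 on the Pth arrays, a difference of 0.71 (SE 0.12, limma adjusted p = 0.0349) that was not called under median scaling or with any 1 array left out. *Ccl5* was at 0.69 (limma adjusted p = 0.17). The groups did not overlap for 7 of the 10, against 21.9% of all genes. Besides *Ccl9* and *Ccl5*, the other 5 were lower on all Pth arrays without a call, from *Ccl4* at -0.56 to *Ccl6* at -0.94. *Ccl6* and *Ccl2* were each above background on only 2 Pth arrays, so the sizes of their differences are uncertain. The summed signal of the list, with *Ccl9* its brightest gene, was 4129 to 4485 (Ctr) and 4844 to 5274 (Pth). *Ccl3* was at -0.92 and *Ccl2*, the main attractant of inflammatory monocytes, at -0.85 (limma adjusted p = 0.0518 and 0.175). The probes of *Cxcl12*, a chemokine of marrow stromal cells, differed. Its brightest was at -0.30 with overlapping groups (limma adjusted p = 0.504), and of its dimmer probes, both lower on all Pth arrays, 1 was called at -0.78 and the other was at -0.70 (limma adjusted p = 0.0406 and 0.068).

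**Figure D3:**
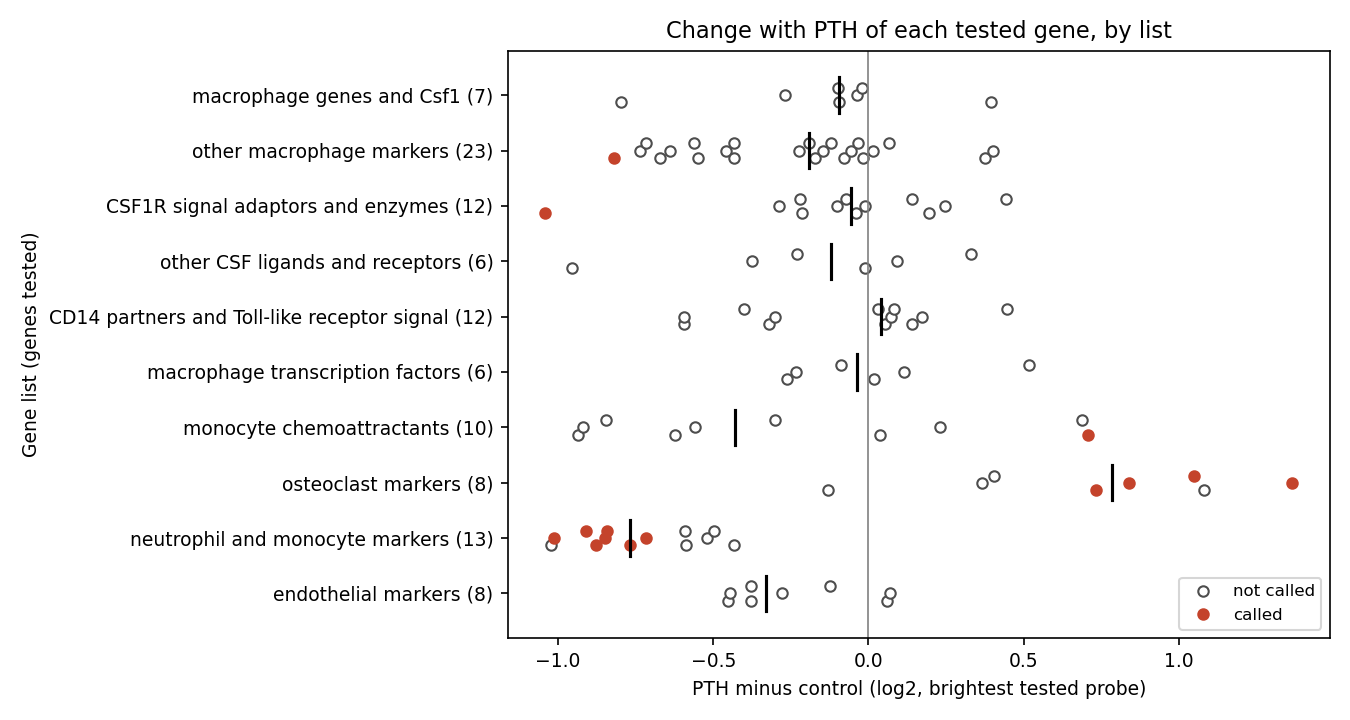
Difference between Pth and Ctr (horizontal axis, log2, brightest tested probe) of each tested gene in 10 lists (vertical axis, number of genes tested in brackets), with filled points for called genes and a bar at the median. The top row, *Csf1* and the macrophage genes, holds no called gene and has its median at -0.10, while 4 of 8 osteoclast markers were called higher and 7 of 13 neutrophil and monocyte markers lower.

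Markers of cell types that share genes with macrophages were called on the same arrays, where 1.73% of all tested genes were called. Of 8 tested osteoclast markers 4 were called, all higher: *Car2* at 1.37, *Oscar* at 1.05, *Acp5* at 0.84 and *Mmp9* at 0.73. The median of the list was 0.79, and its summed signal was 13358 to 14583 on the Ctr arrays and 17548 to 21914 on the Pth arrays. The brightest gene in that sum was *Ctsk*, at 0.36 without a call (limma adjusted p = 0.328). *Tm7sf4*, which encodes the fusion protein DC-STAMP, was at 1.08 without a call, and *Nfatc1*, a transcription factor of osteoclast formation, at -0.13 (limma adjusted p = 0.0742 and 0.719). The dimmer probes of *Nfatc1* disagreed, at 0.07 with overlap, at 0.46 with all Pth arrays above and at -0.32 with all below. None of these passed (limma adjusted p = 0.848, 0.229 and 0.308). With 1 array left out 1 or 2 of the 8 were called, and 1 without the filter on detection. *Calcr* and *Atp6v0d2*, which define mature osteoclasts, were above background on no array. *Csf1r* and *Cd68*, which osteoclasts also express, lay at -0.04 and -0.02. Of 13 tested neutrophil and monocyte markers 7 were called, all lower, with a median of -0.77 and a summed signal of 56217 to 57076 on the Ctr arrays and 35867 to 40591 on the Pth arrays. They were *Retnlg*, *Mpo*, *Ngp*, *Prtn3*, *Lcn2*, *Cd177* and *Ltf*, from -1.01 to -0.72. The brightest gene in the sum was *S100a8*, at -0.43 without a call (limma adjusted p = 0.192). With 1 array left out 0 to 4 of the 13 were called, and under median scaling none. *Ela2* and *Mmp8* were above background on no array. *Cd14*, which these cells express too, was higher on all Pth arrays. Of 8 tested endothelial markers none was called by limma and 1 had an unadjusted p under 0.05, against 14.9% of all genes. Their median was -0.33, with overlapping sums of 1782 to 1935 and 1682 to 1842. *Vwf* and *Tie1* were lowest, both at -0.45, and *Emcn* and *Pecam1* highest at 0.07 and 0.06, beside *Mrc1* at -0.80 and *Stab1* at -0.82, which endothelium can express. The globins *Hba-a1* and *Hbb-b1* of red cells were called lower, at -1.98 and -1.89. Of 12 osteocyte and osteoblast markers tested 3 were called lower, *Ibsp*, *Mepe* and *Sp7*. The single tested dendritic cell marker, *Siglech*, was at 0.07, and the tested lymphocyte markers *Cd79b* and *Nkg7* at -0.10 and -0.45. The part of these cell types in the values of the macrophage genes was not tested.

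The genes nearest in profile were found for *Csf1*, *Csf1r* and *Mrc1* by the root mean square distance over the 6 arrays, after each gene was centred on its own mean. For *Mrc1* they were *Cyp4f18* (0.11), *Tnfrsf10b*, a receptor of the death ligand TRAIL (0.14), and *Sirpb1*, a myeloid receptor that pairs with DAP12 (0.14), with differences between Pth and Ctr of -0.71, -0.71 and -0.72. For *Csf1* they were the ribosomal protein gene *Rps23* (0.06), *Fbxo33* (0.08) and *Ppfibp2* (0.08), and for *Csf1r* they were *Trim27*, *BC013481* and *Syvn1*, at 0.02 to 0.03. These distances are on the log2 scale. Genes with little change, such as *Csf1r*, lie close to many others. *Csf1* varied more between arrays and was highest on the arrays numbered 3 in both groups. The lists for *Mrc1*, *Csf1* and *Csf1r* were each picked from 11979 tested genes and are a description of 6 arrays only.

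**Figure D4:**
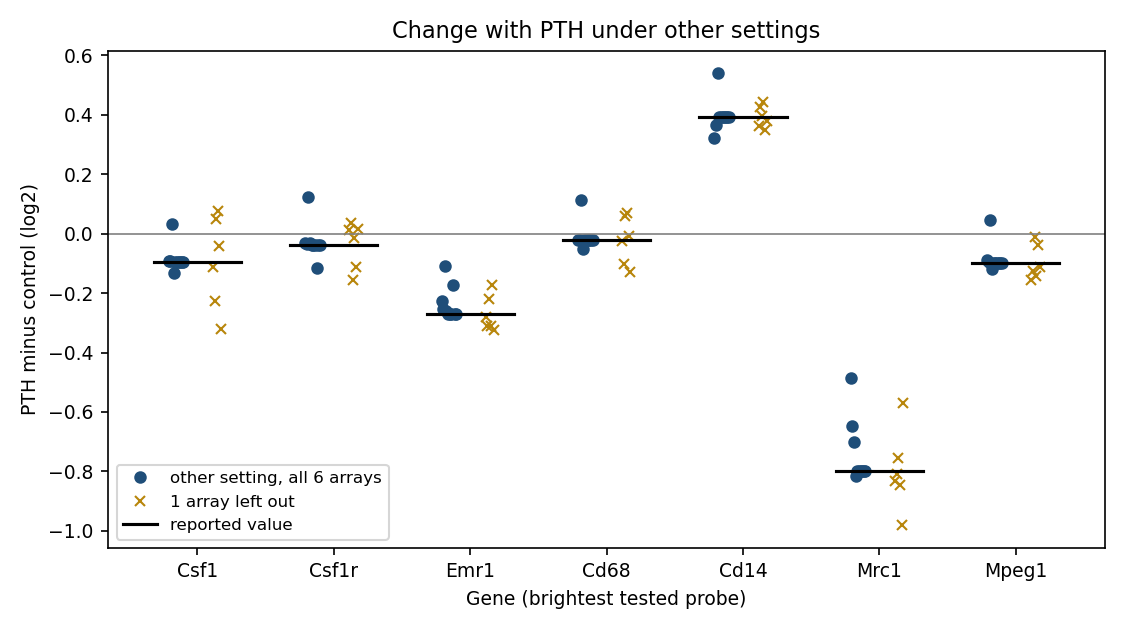
Difference between Pth and Ctr (vertical axis, log2) of the 7 tested genes (horizontal axis) as reported (black line), under the other settings with all 6 arrays (blue points) and with 1 array left out (crosses). *Cd14* stays above 0 (0.32 to 0.54) and *Mrc1* and *Emr1* stay below it throughout, while *Csf1*, *Csf1r*, *Cd68* and *Mpeg1* lie on both sides of 0.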

How the data were processed

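RNA of 6 preparations of bone tubes was labelled with the Ambion kit and hybridized to the Mouse Illumina v6 array. The authors deposited, per the file headers, non-normalized probe intensities on a linear scale, 1 per array, each with a detection p-value. The methods name Genome Studio. All sample columns were used. Probe sequences were not used here, and gene symbols are those of the table. Background was corrected by normexp from the detection p-values (offset 16), followed by quantile normalization and log2, with neqc in limma 3.58.1 (R 4.3.3). Of 45281 probes 16214 were tested. Pth was compared with Ctr with lmFit and eBayes, and p-values were adjusted by Benjamini-Hochberg across the tested probes. The number of arrays limits the precision. The procedure was checked on simulated data.

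The genes, lists and tests were chosen with earlier results of these data known. Of each list, the called genes and the 2 largest differences in each direction are named (for osteocyte markers only those called). Some genes that this rule names are not reported here. Genes named beyond this, such as *Tyrobp*, *Tlr4*, *C1qb*, *Ccl2*, *Ccl4*, *Cxcl12* and those not detected, were chosen for their role after the values were seen. *Ctsk* and *S100a8* were named for their brightness. Alternatives covered background, scaling, filter, probe rule, threshold, replicate block and single arrays left out. A slide block was not run, because neither labels nor headers name slides.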

Additional observations from a re-analysis of the deposited data

How the results depend on the processing

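The count of called genes in the set was 0 and became 1 (*Mrc1*) with an offset of 50 and with an unadjusted p under 0.05. The setting with an unadjusted p kept the 1.5-fold minimum, unlike the counts at an unadjusted p given earlier. It stayed 0 under the other settings and without any 1 array. Among the other colony-stimulating factors and receptors it went from 0 to 1 (*Csf3r*) with the mean of a gene's probes and with an unadjusted p. That mean takes in the dimmer *Csf3r* probe, at background on Pth arrays 1 and 2. Without 1 array the count ranged from 0 to 1 (1 without Ctr replicate 3). Among further macrophage markers it went from 1 to 0 under median scaling, 2 with quantile normalization alone, cyclic loess, detection at p under 0.01 required on all 6 arrays, the mean of probes and a term for the arrays numbered 3 (added after the data were seen), 3 with an offset of 50 and 5 with an unadjusted p, and was 0 without any 1 array. Over all genes 207 were called, 104 under median scaling (63 higher, against 82 of 207), 622 with an unadjusted p and 50 to 95 without 1 array. Median scaling shifted the median of all genes to 0.12; differences of 0.033 for *Csf1*, 0.12 for *Csf1r*, 0.11 for *Cd68* and 0.046 for *Mpeg1* there, opposite in sign to those reported, lie close to or below that shift. Without 1 array *Csf1* ranged from -0.32 to 0.076, *Csf1r* from -0.16 to 0.036 and *Cd68* from -0.13 to 0.069. With the replicate number as a replicate block, 0 genes of the set, 0 of the further macrophage markers, 0 neutrophil, 1 osteoclast marker and 44 genes in all were called, and the calls of *Fcer1g*, *Stab1* and *Ccl9* were lost (limma adjusted p = 0.06, 0.0663 and 0.0852). The numbers were not taken as pairs in the reported fit. Deviations from the group means correlated at 0.07, 0.06 and 0.27 for Ctr and Pth arrays numbered 1, 2 and 3. Unlike numbers gave 0.07 for 1 with 2, either way, and -0.14 to -0.13 with 1 array numbered 3. The arrays numbered 3 thus resembled each other, while numbers 1 and 2 were not told apart. Shares of probes above background were also close by number. They were 34.8% (Ctr) and 34.2% (Pth) for 1, 36.3% and 36.1% for 2, and 38.4% in each group for 3. Whether a number marks a shared batch was not tested. The cause of the shifts between settings was not tested.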
